A study of Arabidopsis thaliana with 6 samples.

Results

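The genes described here are part of the nuclear genes for subunits of the mitochondrial respiratory chain and ATP synthase, measured in siliques, the seed pods of Arabidopsis thaliana. They are 48 loci taken by locus number from the 27628 in the deposited table: 19 of complex I, 4 of complex II, both genes of cytochrome c, 7 of complex III, 7 of complex IV and 9 of complex V, the ATP synthase. A further 49 nuclear subunit genes of these complexes lie outside the set and are described near the end. All 48 passed the filter on low counts, which kept 20827 loci. RNA was sequenced from 3 wild type (WT) libraries and 3 libraries labelled shp1 shp2 mrpl1, a combination named for a pair of MADS-box genes of the silique valve margin and a mitochondrial ribosomal protein gene. Both groups were grown on Murashige and Skoog medium with sucrose under long days. The labels give no alleles, accession of the plants, plant age, silique stage or pooling, and they do not say whether a group's samples are different plants, so a p-value here reflects the spread among these samples, which may be technical.

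Electrons enter the chain at complex I, which oxidises NADH, and at complex II, which oxidises succinate. Ubiquinone carries them to complex III, cytochrome c carries them on to complex IV, where oxygen is reduced, and the proton gradient that complexes I, III and IV build drives ATP synthase. In plants complex I carries a domain of gamma carbonic anhydrase proteins, and the mitochondrial processing peptidase, which removes the targeting peptide of imported proteins, is built into complex III. Many subunits have more than 1 gene in Arabidopsis. One of them, SDH2-3, is known as the seed form of the iron-sulphur subunit of complex II, whose other forms, SDH2-1 and SDH2-2, are used in vegetative organs.

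The libraries held 17857873 to 21603816 estimated counts, of which the 48 genes took 0.421% to 0.460%, and a single gene had between 185 and 4658 counts in a library. Of the genes named in the genotype, SHP1 was lower in the mutant-labelled group by a log2 difference of −0.51 (edgeR's quasi-likelihood test, p adjusted by Benjamini-Hochberg = 0.00242). SHP2 stood at −0.01 and the MRPL1 locus AT2G42710 at 0.24, with edgeR adjusted p of 0.937 and 0.172, so the groups are named here as labelled. All 6 silique markers had counts, and none of the 3 root markers exceeded 0.634 CPM (edgeR's TMM-scaled CPM) in any library. Replicate 1 of both groups lay away from the rest of its group. Over all loci, the chi-square of a pair of libraries divided by its degrees of freedom was 7.69 to 12.1 for the 4 pairs within a group that hold a replicate 1, against 2.54 for WT replicates 2 and 3 and 2.89 for mutant-labelled replicates 2 and 3. Between groups, pairs of replicates 2 and 3 gave 21.1 to 24.9. Pairs of a replicate 1 with replicate 2 or 3 of the other group gave less, 15.8 to 18.7. Both replicates 1 together gave 26.5. The counts of calls, the summed level of each complex and the values that change sign are therefore also given below without both replicates 1.

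Promoters of 4 genes are shown because SDH2-3 is the only member called in the comparison, SDH2-1 is another copy of that subunit, and the cytochrome c pair carries the promoter element known from respiratory genes. Each is the 250 bases before the annotated start of the transcript listed in the table, read 5′ to 3′ on the gene's strand from the TAIR10.1 RefSeq sequence. Capitals mark, on either strand, the site II letters TGGGCC and TGGGCT, the RY letters CATGCA of seed promoters and ACGTG, the core of the G-box and of abscisic acid response elements. A match on the other strand appears as its reverse complement, and the palindrome CACGTG counts on both strands. The windows are chr5:26036058-26036307 (minus strand) for SDH2-3, chr3:10132760-10133009 (minus) for SDH2-1, chr1:8079037-8079286 (plus) for CYTC-1 and chr4:6276698-6276947 (plus) for CYTC-2.
SDH2-3: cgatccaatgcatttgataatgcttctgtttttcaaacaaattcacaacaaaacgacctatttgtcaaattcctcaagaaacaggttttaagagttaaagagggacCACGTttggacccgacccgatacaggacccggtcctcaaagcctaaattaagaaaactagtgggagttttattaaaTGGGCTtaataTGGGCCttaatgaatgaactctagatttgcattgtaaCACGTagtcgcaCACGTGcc
SDH2-1: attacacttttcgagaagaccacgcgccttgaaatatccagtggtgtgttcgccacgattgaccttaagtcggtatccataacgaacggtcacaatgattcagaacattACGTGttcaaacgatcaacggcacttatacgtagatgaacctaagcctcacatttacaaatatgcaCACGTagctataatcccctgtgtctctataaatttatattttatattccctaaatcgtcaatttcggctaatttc
CYTC-1: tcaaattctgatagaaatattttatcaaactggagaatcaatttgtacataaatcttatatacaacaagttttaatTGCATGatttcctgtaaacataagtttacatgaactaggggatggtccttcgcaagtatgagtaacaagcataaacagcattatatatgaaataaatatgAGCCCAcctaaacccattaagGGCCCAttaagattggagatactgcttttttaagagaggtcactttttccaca
CYTC-2: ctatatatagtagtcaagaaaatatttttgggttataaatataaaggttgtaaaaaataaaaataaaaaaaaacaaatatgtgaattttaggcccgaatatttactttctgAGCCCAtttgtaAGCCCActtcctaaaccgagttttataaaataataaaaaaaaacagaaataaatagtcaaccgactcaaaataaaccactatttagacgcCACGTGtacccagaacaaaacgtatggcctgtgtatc

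The SDH2-3 window held 4 matches to ACGTG and a pair of site II matches that begin 57 and 68 bases before the start, and no RY match. SDH2-1, whose listed transcript overlaps the neighbour AT3G27360 by 328 bases on the same strand, had 2 matches to ACGTG and no site II match. CYTC-1 and CYTC-2 had 2 site II matches each. CYTC-1 also had 1 RY match, and CYTC-2 had 2 matches to ACGTG. The window of SDH2-2, not shown, had 2 matches to ACGTG as well. Over the whole set, 26 of 48 windows (54.2%) held a site II match and 37.5% held at least 2. The shares were 42.9% and 38.8% in 49 other respiratory subunit genes, and 19.3% and 12.1% of 27417 nuclear promoters of the same length. Site II was found in 10 of 19 genes of complex I, 1 of 4 of complex II, 6 of 7 of complex III, 3 of 7 of complex IV, 4 of 9 of ATP synthase and both cytochrome c genes. EMB1467 and OEP16-3 of complex I had 4 matches each, the highest number. ACGTG was in 31.3% of the 48 windows and 23.1% of all, CATGCA in 8.33% and 8.34%, and the telo-box letters AAACCCT in 0 of 48 and 7.65%. A match describes these letters in this window and is not a measured binding site.

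In WT siliques the transcripts of this machinery were abundant. Per kilobase of transcript, levels ran from 13.2 ± 1.67 CPM for GLDH, the last enzyme of ascorbate synthesis, which is also needed to assemble complex I, to 190 ± 22.0 CPM for COX6a, a small subunit of complex IV (SD, n = 3). These stood at the 61.1st and 98.3rd percentile of all tested loci, and the median gene of the set was at 64.0 CPM per kilobase. ATP synthase genes spanned a 2.38-fold range, the narrowest of the 6 groups of genes, from 55.9 to 133 CPM per kilobase, with the peripheral stalk proteins MGP1 (133 ± 16.7), OSCP (122 ± 7.68) and ATPQ (115 ± 10.9) above each of the 3 beta subunit genes. The 3 beta genes, which encode the catalytic subunit, together gave 212 ± 11.8 CPM per kilobase, above the gamma subunit gene ATP3 at 113 ± 4.03. In complex I the NADH-oxidising flavin subunit CI51 stood at 97.5 ± 2.37 and the small accessory subunit MWFE at 130 ± 17.2 CPM per kilobase. The 5 genes of the gamma carbonic anhydrase domain were lower, between 18.7 and 41.7 CPM per kilobase. MPPbeta, the catalytic side of the processing peptidase, led complex III at 98.2 ± 2.95, and both MPPalpha genes summed to 84.6 ± 3.56 CPM per kilobase.

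**Figure D1:**
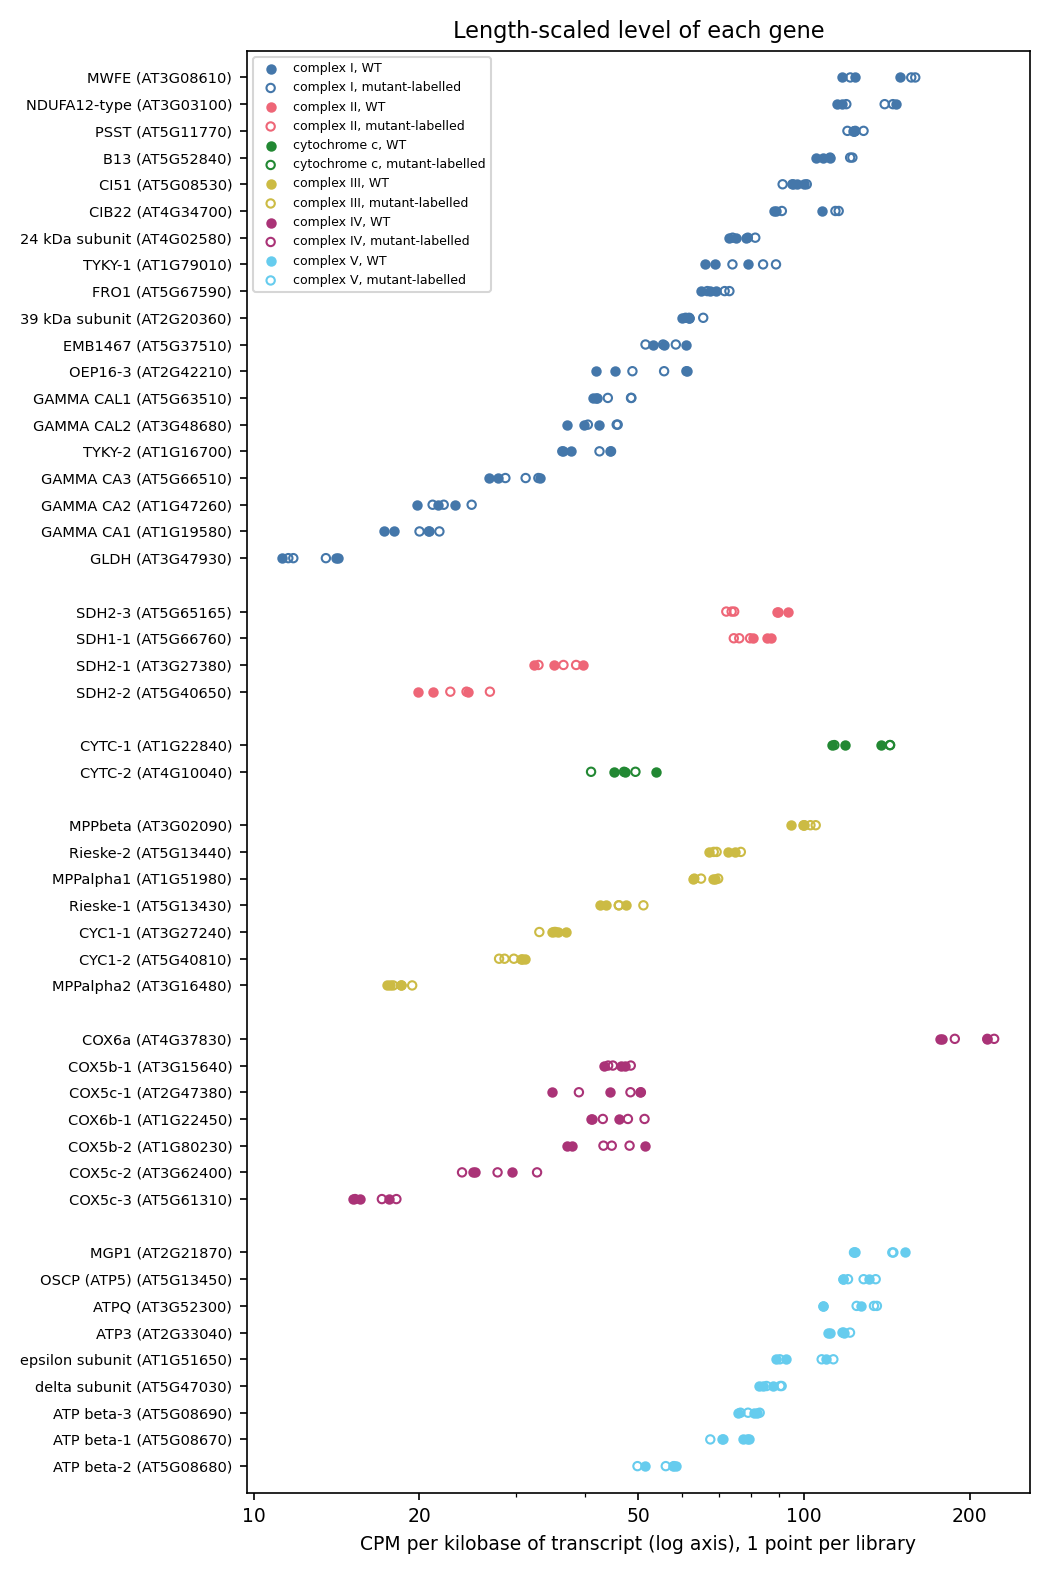
Length-scaled level of each of the 48 genes, in CPM per kilobase of transcript on a log axis, with 1 point per library (filled, WT; open, mutant-labelled) and genes grouped by complex and ordered by WT mean. COX6a (190 in WT) and GLDH (13.2 in WT) lie at the ends, and the points of both groups overlap for most genes.

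Between the groups, 1 of the 48 genes was called lower in the mutant-labelled group and 0 were called higher, at an adjusted p below 0.05 in edgeR's quasi-likelihood test. DESeq2 also called 1 lower and 0 higher. Over all tested loci edgeR called 4.07% lower and 4.89% higher, so both counts were below the background share. At an unadjusted p below 0.05 there were 4 of the 48 (8.33%) against 21.8% of all loci. The groups of 3 libraries did not overlap for 4 of the 48 genes (8.33%), where 25.9% of all loci had no overlap. The log2 fold change, mutant-labelled minus WT, was positive for 35 of 48 genes, with a median of 0.07 against 0.00 over all loci. Leaving out WT replicate 1 gave a median of 0.12 and leaving out mutant-labelled replicate 1 gave 0.11, while it was 0.04 when WT replicate 2, WT replicate 3 or mutant-labelled replicate 2 was left out. For the 47 genes not called, folds ran from 0.910 to 1.16. A fall of more than 20.1% or a rise of more than 36.3% lay outside the 95% interval of every one of them, and 44 of the 47 intervals included 0.

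**Figure D2:**
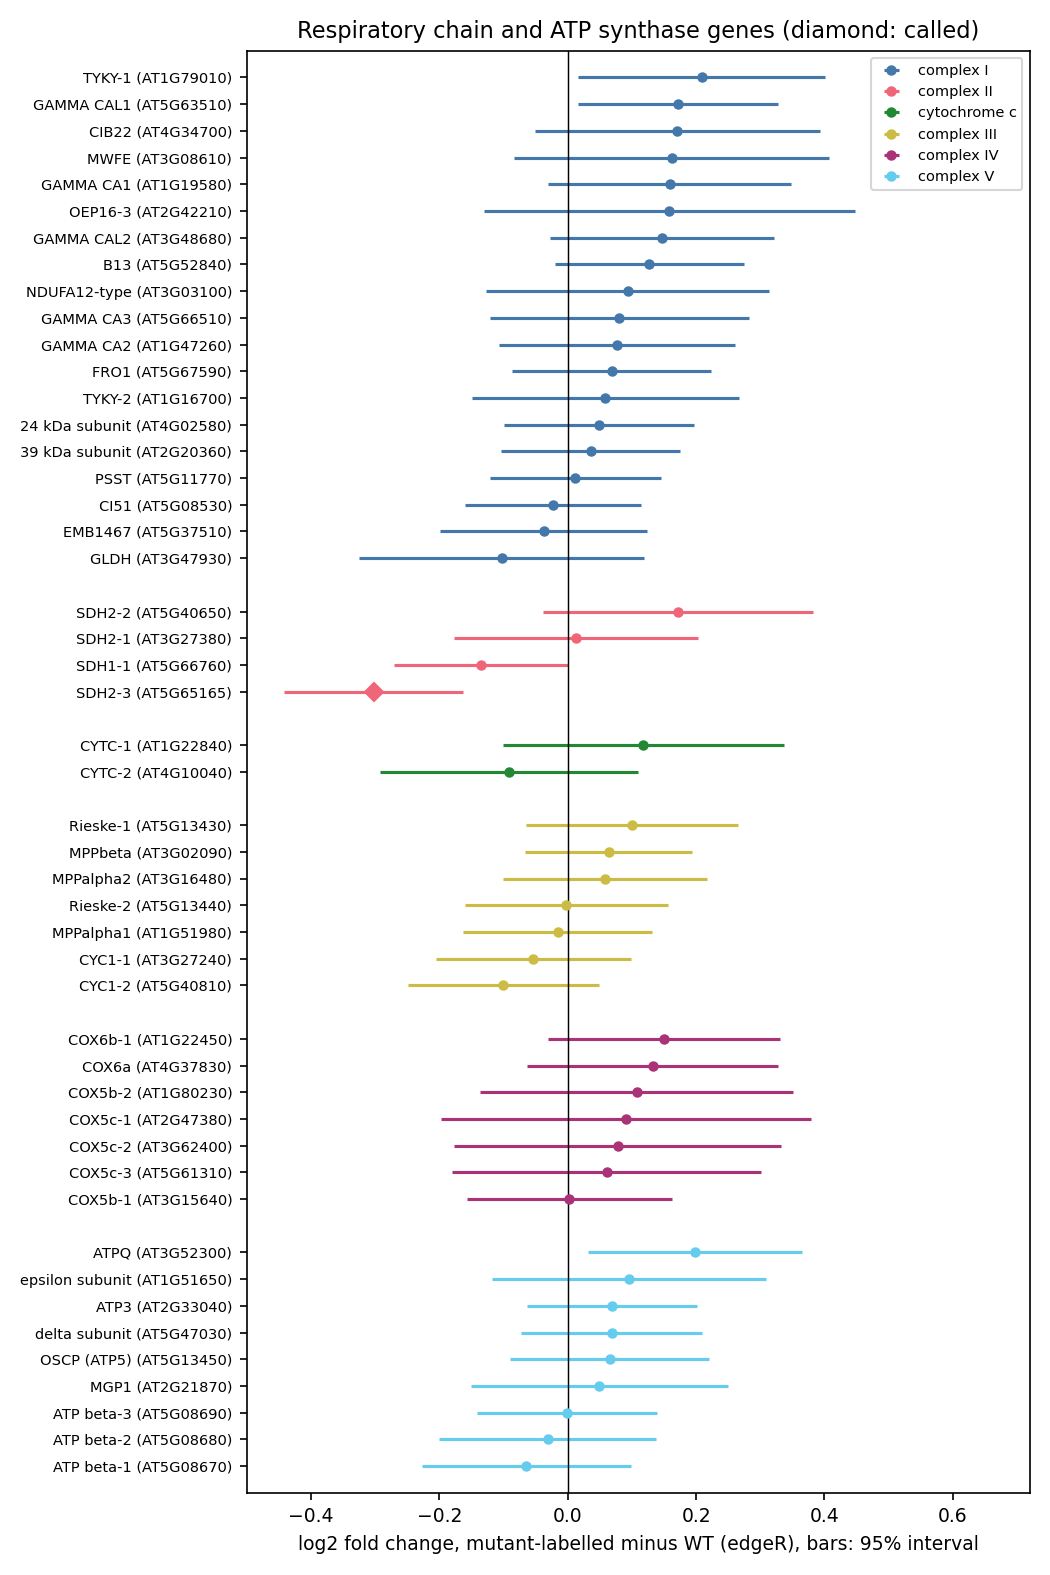
Log2 fold change of each gene, mutant-labelled minus WT, from edgeR, with 95% intervals, coloured by complex. The diamond marks SDH2-3 at −0.30, the only gene called. Of the other 47 intervals, 44 include 0.

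The gene that fell was SDH2-3 (AT5G65165), the seed form of the iron-sulphur subunit of succinate dehydrogenase, with 5 exons on the minus strand of chromosome 5 from 26034422 to 26036057. Its levels were 108, 104 and 103 CPM in the WT libraries (in the order of replicates 1 to 3, here and below), and 83.7, 85.6 and 86.5 CPM in those labelled mutant. All mutant-labelled libraries were below all WT libraries. The log2 fold change was −0.30 (SE 0.064; 95% interval −0.44 to −0.16; edgeR, adjusted p = 0.00987), a fold of 0.811. None of its 50-base windows occurred in another transcript of the table. Without mutant-labelled replicate 3 the edgeR adjusted p was 0.0535, and without both replicates 1 the log2 fold change was −0.27 (edgeR adjusted p = 1.6e-04). With the replicate number as a block it was −0.30, and SDH2-3 was not called (edgeR adjusted p = 0.133).

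Markers of maturing seed also differed between the groups in these bulk siliques. Of 15 such markers, which included cruciferins, albumins and oleosins, 7 were called lower and 1 higher, with a median log2 fold change of −0.25. GEA6, a late embryogenesis abundant protein gene, was the one called higher, at 1.40 (edgeR, adjusted p = 4.9e-04). The other 7 were not called, among them EM1 at 0.01 and FUS3 at −0.06. None of the 15 was at 0 in any library. Their summed level was 195430 to 207640 CPM in WT and 157850 to 169320 CPM in the mutant-labelled group, with no overlap. Storage protein genes made up most of this sum, with WT means such as 47630 CPM for SESA3 and 39523 for CRU3. FUS3, GEA6, ABI3 and EM1 stood at 104, 126, 161 and 300 CPM in WT and hardly counted in it. Set against that sum, SDH2-3 stood at 5.22, 5.25 and 5.28 per 10000 CPM in WT and 5.24, 5.42 and 5.11 in the mutant-labelled group. The groups overlapped on this ratio, whose means were 5.25 ± 0.032 and 5.26 ± 0.157 (SD, n = 3 each). The ratio was chosen after the values were seen and is given as a description, with no test. Other tissue markers moved as well. Of the 6 silique markers, 2 were called lower by edgeR, SHP1 and AGL8, a MADS-box gene of the silique valve (44.1 to 35.8 CPM, log2 fold change −0.30; edgeR, adjusted p = 0.0477). Of 4 pollen markers tested, VGD1, a pectin methylesterase gene, was called higher (8.77 to 13.4 CPM, log2 fold change 0.62; edgeR, adjusted p = 0.00763). Of 4 markers of green tissue edgeR called 0, with a median of 0.10. The part of tissue content in the SDH2-3 difference was not tested, and in bulk tissue fewer cells of a type and less RNA per cell cannot be told apart.

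**Figure D3:**
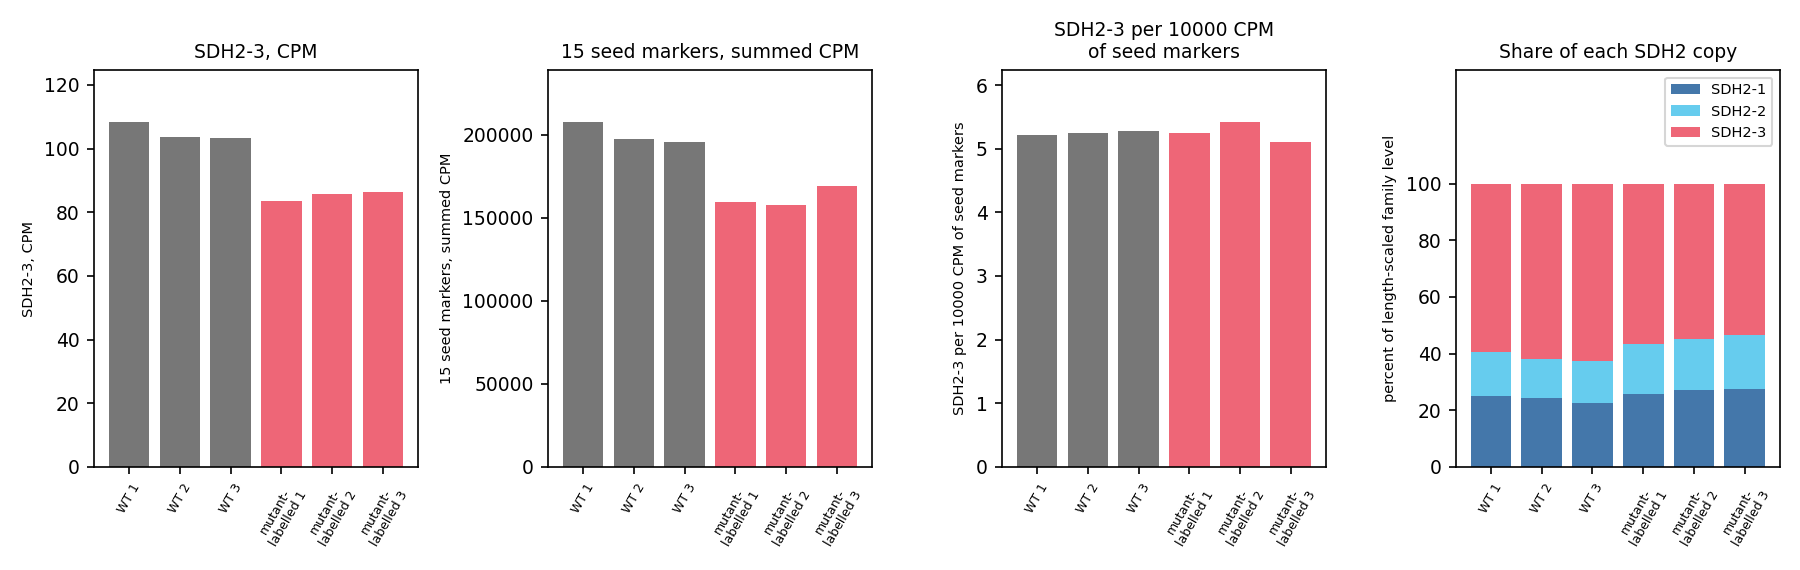
Bars give, for each of the 6 libraries, SDH2-3 in CPM, the summed CPM of 15 seed markers, SDH2-3 per 10000 CPM of those markers, and the share of the length-scaled SDH2 level held by each copy. SDH2-3 and the summed markers are lower in all 3 mutant-labelled libraries, while the ratio lies between 5.11 and 5.42 in all 6.

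The other genes of complex II did not pass the test. SDH1-1 (AT5G66760), the flavoprotein subunit that oxidises succinate, had 205, 218 and 222 CPM in WT and 203, 190 and 194 CPM in the mutant-labelled group. Its groups did not overlap, by a margin of about 2 CPM between the nearest libraries, and its log2 fold change was −0.14 (standard error, SE, 0.063; edgeR, adjusted p = 0.229). SDH2-1 had 100, 88.6 and 81.5 CPM in WT and 83.1, 92.3 and 97.3 CPM in the mutant-labelled group. Its log2 fold change was 0.01. SDH2-2 had 28.0, 22.8 and 24.2 CPM against 26.0, 27.8 and 30.7 CPM, and its log2 fold change was 0.17. The groups of both copies overlapped. SDH2-2 overlaps AT5G40660 by 382 bases on the other strand and shared 30.5% of its 50-base windows with it, so its counts are uncertain. SDH2-1 shared 11.3% of its windows with AT3G27360 and AT5G10400, so its counts are uncertain as well.

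As a share of the length-scaled SDH2 level, SDH2-3 held 59.3%, 61.9% and 62.5% in WT and 56.5%, 54.8% and 53.3% in the mutant-labelled group. SDH2-1 held 25.1%, 24.3% and 22.6% in WT and 25.7%, 27.1% and 27.5% in the mutant-labelled group, and SDH2-2 went from a mean of 14.7% to 18.4%. None of these 3 shares overlapped between groups, but they add up to the whole, so a fall in SDH2-3 alone raises the others. They are not separate results, and SDH2-3 was called in these same libraries. Each share gave p = 0.1 in an exact two-sided permutation test, the smallest that 20 assignments allow. The adjusted p was 0.289 over the 26 copies of 11 families. With coding length in place of transcript length, chosen after the values were seen, SDH2-3 held 45.3% and 39.3%, SDH2-1 42.9% and 46.4% and SDH2-2 11.9% and 14.3%. The order of SDH2-3 and SDH2-1 in the mutant-labelled group thus depended on the length used. The summed level of the 4 complex II genes was 238, 230 and 230 CPM per kilobase in WT and 208, 209 and 216 in the mutant-labelled group. These did not overlap, with p = 0.1 by the exact permutation test and 0.3 after adjustment over the 6 sums. SDH2-3 is part of this sum, at 90.7 CPM per kilobase in WT and 73.6 in the mutant-labelled group. The sum is therefore not a separate result. Other complex II genes lie outside these 4. Their log2 fold changes ran from −0.04 for SDH5, the only negative one, to 0.31 for an SDH7 gene (AT3G47833), and edgeR called none. The log2 difference of the sum was −0.11 without both replicates 1, against −0.14 with all libraries. Without those replicates edgeR called SDH2-1 and SDH2-2 higher (0.16 and 0.32) and SDH1-1 and SDH2-3 lower. Over all loci 15.3% were called higher there and 15.8% lower.

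Complex I showed small positive values in most of its genes, none of them called. Its log2 fold changes were positive for 16 of 19 genes with a median of 0.08, and the summed level was 1266 ± 80.3 CPM per kilobase in WT and 1349 ± 80.4 in the mutant-labelled group (SD, n = 3 each). The groups overlapped, with an exact permutation p of 0.2. The sums differed by 0.19 (log2) without both replicates 1, against 0.09 with all libraries. Without those replicates edgeR called 11 of the 19 genes higher, against 15.3% of all loci, and GLDH lower, against 15.8%. The highest value was that of TYKY-1 (AT1G79010), an iron-sulphur subunit on the way to ubiquinone. It had 87.6, 72.9 and 76.2 CPM in WT and 82.0, 98.4 and 93.2 CPM in the mutant-labelled group, so the groups overlapped through replicate 1 of each (log2 fold change 0.21, SE 0.089; edgeR, adjusted p = 0.186). Its second copy, TYKY-2, whose coding sequence is 91.2% identical, had a log2 fold change of 0.06, at 39.5 ± 4.22 CPM per kilobase in WT and 41.2 ± 4.27 in the mutant-labelled group.

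All 5 genes of the gamma carbonic anhydrase domain had positive values, from 0.08 for GAMMA CA2 to 0.17 for GAMMA CAL1. GAMMA CAL1 (AT5G63510) was the one whose groups did not overlap, with 49.9, 49.6 and 49.0 CPM in WT and 52.2, 57.5 and 57.6 CPM in the mutant-labelled group (SE 0.072; edgeR, adjusted p = 0.179). Per kilobase of transcript, the WT levels were 18.7 for GAMMA CA1, 21.5 for GAMMA CA2, 29.2 for GAMMA CA3, 41.7 for GAMMA CAL1 and 39.8 CPM for GAMMA CAL2. By transcript length GAMMA CA2 held 31.1% of the WT level of the GAMMA CA genes and GAMMA CA3 42.0%. By coding length these shares were 47.7% and 29.2%, so the order of GAMMA CA2 and GAMMA CA3 depended on the length used. GAMMA CA2 overlaps AT1G47250 by 1652 bases on the other strand and shared 26.8% of its windows with it. The 7 accessory subunits were also all positive, from 0.04 for AT2G20360 to 0.17 for CIB22, but under a correction for transcript length 6 of the 7 were, with FRO1 at −0.02. The other peripheral arm subunits lay close to 0, with CI51 at −0.02, EMB1467 at −0.04, PSST at 0.01 and AT4G02580 at 0.05. PSST, the iron-sulphur subunit next to ubiquinone, was the steadiest of the set in WT, at 147 ± 0.227 CPM. GLDH was the lowest of complex I at −0.10 (SE 0.103).

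Neither cytochrome c gene was called. CYTC-1 had 101, 81.9 and 86.6 CPM in WT and 82.9, 105 and 105 CPM in the mutant-labelled group. Its log2 fold change was 0.12. CYTC-2 had 43.9, 36.8 and 38.6 CPM against 33.4, 40.3 and 38.4 CPM, and its log2 fold change was −0.09. CYTC-1 stood at 0.31 without both replicates 1 and was called (edgeR, adjusted p = 1.0e-05), and CYTC-2 changed sign to 0.06 (edgeR, adjusted p = 0.581). The log2 difference of their summed level was 0.25 there, against 0.06 with all libraries. With the length correction CYTC-2 stood at −0.18 and was called lower (edgeR, adjusted p = 0.0459). In both genes replicate 1 was the highest library of WT and the lowest of the mutant-labelled group. The share of CYTC-1 in their summed level was less variable, at 71.9%, 71.3% and 71.5% in WT and 73.5%, 74.4% and 75.3% in the mutant-labelled group. The shares did not overlap (exact permutation p = 0.1, adjusted p = 0.289). CYTC-1 overlaps AT1G05773 by 484 bases on the other strand, and no strand setting was given in the sources used here.

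In complex III, 3 of 7 values were positive and the summed level was 366 ± 7.96 CPM per kilobase in WT and 370 ± 5.78 in the mutant-labelled group. Without both replicates 1 and with library totals 5 of 7 were positive, and 4 with the length correction. Leaving out both replicates 1 gave a log2 difference of the sum of 0.04, against 0.02 with all libraries. Rieske-1 was then the one gene called, at 0.17 (edgeR, adjusted p = 0.033), where 15.3% of all loci were called higher. Both cytochrome c1 genes had negative values. CYC1-2 (AT5G40810) had 51.7, 51.9 and 52.7 CPM in WT and 48.4, 50.3 and 47.3 CPM in the mutant-labelled group, with no overlap between the groups, at a log2 fold change of −0.10 with SE 0.069 (edgeR, adjusted p = 0.442). CYC1-1 stood at −0.05. The processing peptidase genes MPPalpha1, MPPalpha2 and MPPbeta stood at −0.02, 0.06 and 0.06, and MPPalpha1 changed sign to 0.01 without both replicates 1. The Rieske iron-sulphur protein genes, 94.7% identical in coding sequence, stood at 0.10 and 0.00, and Rieske-2 changed sign to 0.06 without both replicates 1. Rieske-1 held 38.7%, 38.7% and 37.5% of their summed level in WT and 40.2%, 39.9% and 39.9% in the mutant-labelled group (exact permutation p = 0.1, adjusted p = 0.289), but both genes had fractional counts and shared 15.8% and 13.3% of their windows, so their split is uncertain.

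All 7 genes of complex IV in the set had positive values, from 0.00 for COX5b-1 to 0.15 for COX6b-1, and none was called. This direction depended on the processing. With the length correction 3 of 7 were positive and COX5b-1, COX5c-1, COX5c-2 and COX5c-3 stood at −0.04, −0.03, −0.03 and −0.05. Of the 7, 6 were positive without both replicates 1, with COX5b-1 at −0.02. There edgeR called 5 of them higher, against 15.3% of all loci. COX5b-1 stood at 45.8 CPM per kilobase in both groups, and COX5b-2 at 42.1 ± 8.03 in WT and 45.4 in the mutant-labelled group. COX6a had 129, 106 and 106 CPM in WT and 112, 129 and 132 CPM in the mutant-labelled group, so the groups overlapped (log2 fold change 0.13). The summed level was 406 ± 41.1 CPM per kilobase in WT and 438 ± 35.2 in the mutant-labelled group (exact permutation p = 0.2), a log2 difference of 0.11 that was 0.26 without both replicates 1. Subunit 5c comes from 3 genes, of which COX5c-1 held 46.1% to 52.4% of the length-scaled level in WT and 48.7% to 53.0% in the mutant-labelled group. COX5c-2 held a mean of 31.1% and 30.9%, and COX5c-3 18.9% and 18.6%. COX5c-1 overlaps AT2G09885 by 769 bases on the other strand.

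In ATP synthase the 3 catalytic beta genes had values at or below 0 (−0.06, −0.03 and 0.00) while the other 6 genes had positive ones. Under 2 other scalings beta-2 and beta-3 were positive, at 0.00 and 0.03 with the length correction and with library totals alike, so 8 of 9 genes were positive there. Without both replicates 1 the beta genes stood at −0.18, −0.13 and −0.07. There edgeR called beta-1 lower, against 15.8% of all loci, and 4 genes of the complex higher, against 15.3%. ATPQ (AT3G52300), subunit d of the peripheral stalk, had 139, 119 and 119 CPM in WT and 137, 149 and 147 CPM in the mutant-labelled group. The groups overlapped through replicate 1 of each, and the log2 fold change was 0.20 (SE 0.077; edgeR, adjusted p = 0.144). The rotating stalk genes ATP3, AT5G47030 and AT1G51650, for the gamma, delta and epsilon subunits, stood at 0.07, 0.07 and 0.10. The beta genes lie side by side on chromosome 5, are 91.0% to 94.4% identical in coding sequence, had fractional counts in every library and shared 8.17% to 12.6% of their windows. Their shares were 35.9%, 26.4% and 37.7% of the summed level in WT and 35.1%, 26.4% and 38.5% in the mutant-labelled group. The summed level of the complex was 877 ± 36.7 and 916 ± 25.3 CPM per kilobase (exact permutation p = 0.2), a log2 difference of 0.06 that was 0.12 without both replicates 1.

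The deviations of the libraries numbered 1 went with transcript length in these genes. WT replicate 1 was above the mean of its mates for 38 of 48 genes and mutant-labelled replicate 1 was below the mean of its mates for 37. Among the 31 genes with transcripts under 1500 bases these counts were 29 and 29, and among the 17 longer ones 9 and 8; the length of 1500 bases was chosen after the values were seen. Across the 48 genes, Spearman's rho with transcript length was −0.60 for the deviation of WT replicate 1, 0.72 for that of mutant-labelled replicate 1 and −0.56 for the log2 fold change. Over all loci the corresponding values were −0.49, 0.52 and −0.25. These are descriptions across genes that share the same libraries. The median log2 fold change was 0.09 for the shorter genes and −0.02 for the longer ones. The part of length in the group differences was not tested beyond the correction given next.

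**Figure D4:**
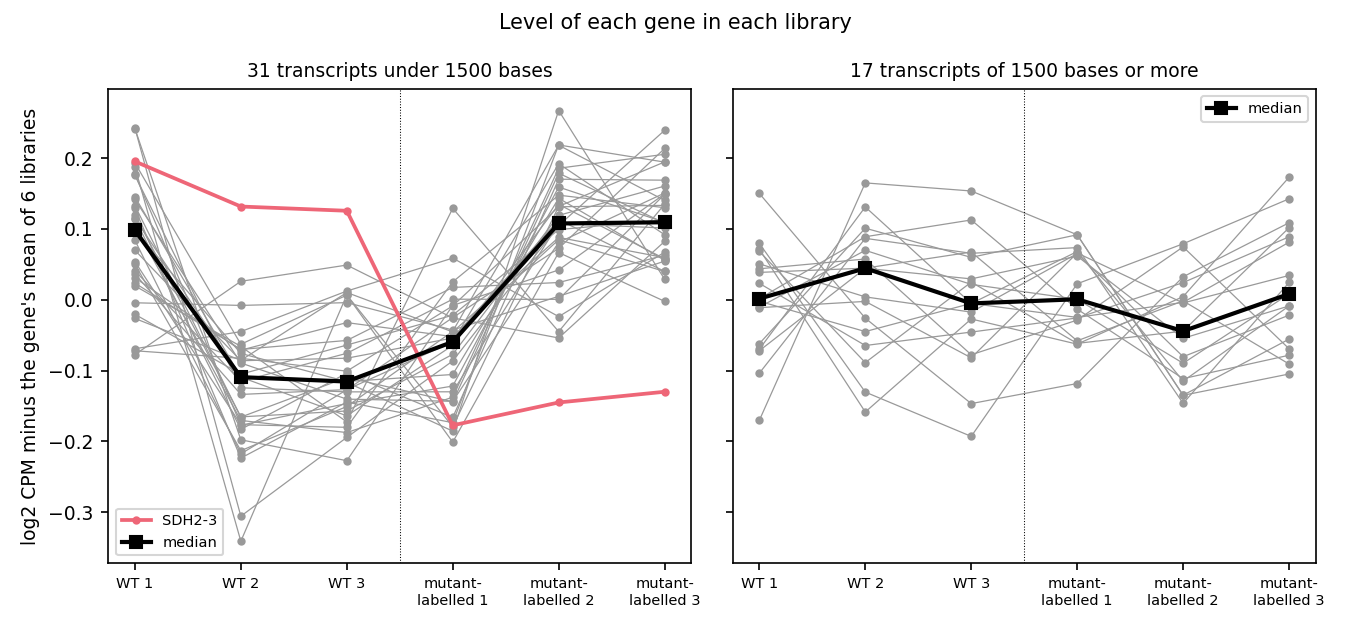
Log2 CPM of each gene minus its mean over the 6 libraries, for 31 genes with transcripts under 1500 bases (left) and 17 longer ones (right). Black squares give the median and the red line SDH2-3. In the shorter genes WT 1 lies above WT 2 and 3 in 29 of 31 cases and mutant-labelled 1 below its mates in 29 of 31.

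**Figure D5:**
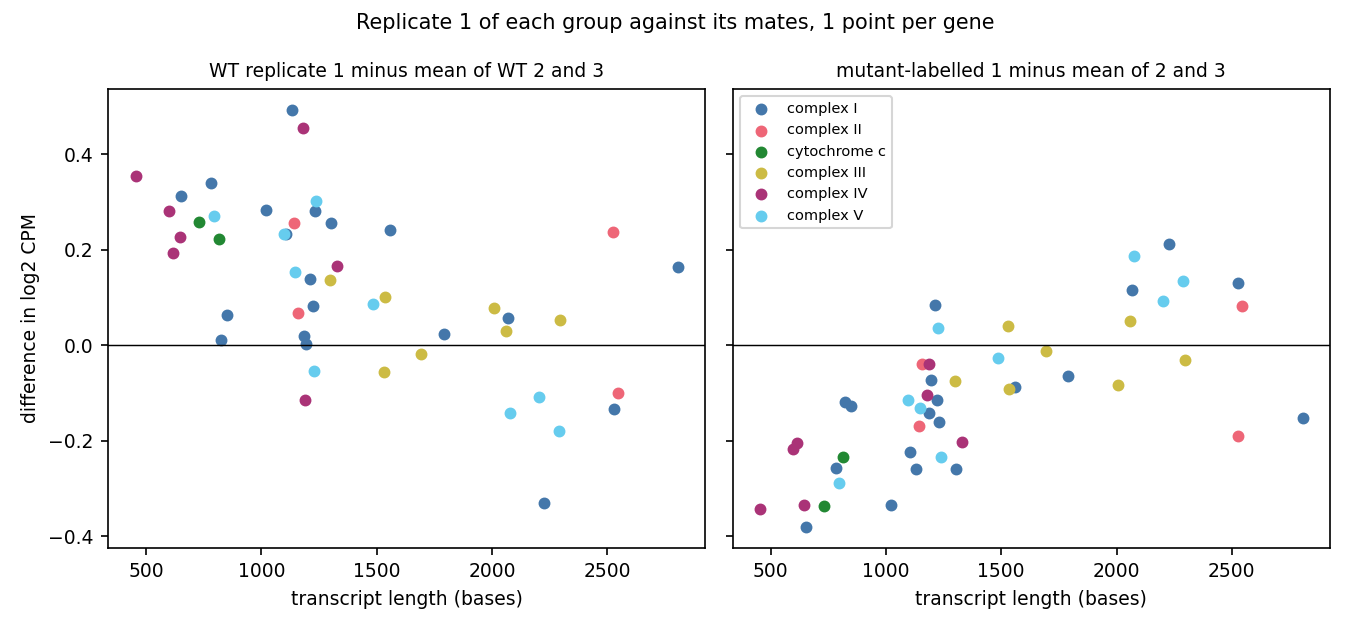
Difference in log2 CPM between replicate 1 and the mean of replicates 2 and 3 against transcript length in bases, 1 point per gene, for WT (left) and the mutant-labelled group (right). The points fall with length in WT (rho −0.60) and climb with length in the mutant-labelled group (rho 0.72).

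Without both replicates 1, edgeR called 24 of the 48 genes higher and 4 lower, against 15.3% and 15.8% of all loci, and the median log2 fold change was 0.16. The 4 lower were GLDH, SDH1-1, SDH2-3 and ATP beta-1, and the 24 higher included TYKY-1 (0.36), OEP16-3 (0.42), COX6a (0.30) and ATPQ (0.32). This fit rested on 2 libraries a group. Without WT replicate 1 alone, 4 were called higher (TYKY-1, OEP16-3, COX5b-2 and ATPQ) and 1 lower, against 7.29% and 6.98% of all loci. With voom quality weights, which let a library count for less, 9 were higher and 2 lower, against 10.2% and 9.67%. With each library corrected for transcript length, 1 was higher (ATPQ) and 2 were lower (SDH2-3 and CYTC-2), against 8.46% and 7.5%, and the median of the 48 genes was 0.02. Without both replicates 1 and with voom weights, the share of the 48 genes called higher was above the background and the share called lower was below it.

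Genes around the 48 were set beside all tested loci, of which edgeR called 4.89% higher and 4.07% lower. Of all tested loci, 21.8% had an unadjusted p below 0.05 in that test. Among 49 other nuclear subunits of the same complexes, 45 had positive values with a median of 0.12, and 7 had an unadjusted p below 0.05. By edgeR 1 was called, AT5G25450, a small complex III subunit gene, which rose from 2.30 to 3.70 CPM (log2 fold change 0.68; edgeR, adjusted p = 0.0224). It overlaps AT5G03975 and AT5G25451 on the other strand by 299 and 276 bases. None of 14 assembly factor genes was called by edgeR (median −0.03, 0 at an unadjusted p below 0.05), nor any of 28 genes of the tricarboxylic acid cycle (median −0.02, 1 below 0.05) or 5 carriers of adenylates and phosphate (median 0.07, 0 below 0.05). Of 23 subunit genes of the mitochondrial genome, 21 were in the table and 16 passed the filter. Of these 16, 15 had positive values, with a median of 0.45, and 5 had an unadjusted p below 0.05. ATMG00730 (1.31, from 0.806 to 2.01 CPM) and ATMG01080 (0.64, from 3.67 to 5.71 CPM) were called higher by edgeR, with adjusted p of 0.0141 and 0.0169. The summed level of the mitochondrial genes was 30.3, 36.6 and 30.3 CPM in WT and 56.7, 39.9 and 39.2 CPM in the mutant-labelled group, with no overlap between the groups and with mutant-labelled replicate 1 the highest of the 6. These low levels come from libraries of purified mRNA.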

How the data were processed

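Siliques of 3 WT and 3 mutant-labelled samples were sequenced after mRNA purification, per the labels' protocols, which name both a TruSeq and a SMARTER kit. The deposited table holds estimated counts per locus. The submitters' processing notes list DESeq2, featureCounts 1.6.3, HISAT2, Trimmomatic 0.39 and FastQC 0.11.9. Genome build, strand setting and the handling of reads that match several loci are not given in the sources used here.

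Values that were not whole made up 2.95% to 3.47% of a library, and all were rounded. edgeR 4.0.16 in R 4.3.3 was run over all loci (filterByExpr, minimum count 10 and minimum total 15; TMM; robust quasi-likelihood fit; genotype as the only term), with Benjamini-Hochberg adjustment over the 20827 tested loci and calls at an adjusted p under 0.05. Standard errors are the log2 fold change over the square root of F. CPM are TMM-scaled, and length-scaled levels divide them by transcript length in kilobases. Shares and sums were compared by exact two-sided permutation tests over 20 assignments, smallest p 0.1. Lengths, coordinates and promoters came from TAIR10.1 RefSeq, where 27419 of 27628 rows matched by transcript; coordinates are those of that build.

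The members and lists were chosen with earlier results of these data known. All 48 members may be named; values with SE and adjusted p are given for members called and those with small adjusted p, and copies of a family by their level or share. Of each related list the called genes are named, and for complex II also the ends of the range. Alternatives were DESeq2 size factors, library totals, the DESeq2 1.42.0 test, limma 3.58.1 voom with quality weights, other filters, the replicate number as a block, a length correction, removal of loci with fractional counts, and leaving out libraries. Coding length for family shares and the ratio of SDH2-3 to seed markers were added after the data were seen. Groups came from the genotype label and replicate numbers from the titles.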

Additional observations from a re-analysis of the deposited data

How the results depend on the processing

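The number of the 48 genes called higher (0) and lower (1) was the same with DESeq2 size factors, library totals, the DESeq2 test, no filter, a filter of 1 CPM in 3 libraries and without loci with fractional counts. It was 9 and 2 with voom quality weights, against 10.2% and 9.67% of all loci. With the length correction it was 1 and 2, against 8.46% and 7.5%. Without both replicates 1 it was 24 and 4, against 15.3% and 15.8%. Leaving out 1 library at a time gave 0 to 4 higher, the 4 without WT replicate 1, where 7.29% of all loci were called higher. It gave 0 to 1 lower, the 0 without mutant-labelled replicate 3. With the replicate number as a block, 0 were lower and 0 higher by edgeR (1 at an unadjusted p below 0.05), and SDH2-3 had an adjusted p of 0.133. Same-numbered samples deviated with correlations of −0.54, −0.33 and −0.19, and differently numbered ones with −0.18 to 0.42. These are deviations from means of 3 libraries, with replicate 1 apart in both groups. They therefore cannot show whether the numbers pair the samples. Over all these fits the log2 fold change of SDH2-3 lay between −0.35 and −0.27.

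With library totals the summed level of complex II differed by −0.11 and that of complex III by 0.051 (log2; −0.14 and 0.02 with TMM), as that scaling moved the median of all loci to 0.03. Without both replicates 1 the sums differed by 0.19 for complex I, 0.25 for cytochrome c, 0.26 for complex IV and 0.12 for complex V (0.09, 0.06, 0.11 and 0.06 with all libraries). The cause was not tested. The called gene, SDH2-3, kept its direction in every fit. Leaving out 1 library at a time, the median log2 fold change of the 48 genes lay between 0.04 and 0.12, and the log2 difference of the sums between 0.06 and 0.14 for complex I, −0.16 and −0.12 for complex II, 0.00 and 0.03 for complex III, 0.06 and 0.19 for complex IV and 0.04 and 0.10 for complex V. For cytochrome c the highest was 0.16 and the lowest just below 0, without WT replicate 2. Genes had 185 to 4658 counts and a median SE of 0.08. The SE was 0.11 to 0.13 in the COX5c genes, with 185 to 480 counts, but also 0.13 in OEP16-3 and 0.11 in MWFE and COX5b-2, so counts alone did not order it. Intervals cover these samples only.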
